A study of Homo sapiens with 6 samples.

Results

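The intestinal lineage transcription factors CDX1, CDX2, HNF4A, HNF4G, GATA6, KLF4, KLF5 and ELF3 were followed in WT and LSD1 KO HCT116 cells. They were taken by symbol from the deposited count table, and all 8 were found among its 60240 genes. HCT116 is a colorectal carcinoma cell line, and its RNA was measured by RNA-seq in 3 WT libraries and 3 LSD1 KO libraries, numbered 1 to 3 in each group. The LSD1 KO cells had been made by CRISPR/Cas9 with a target in exon 1 of the LSD1 gene, and single clones were grown out after selection with puromycin. The study states in general that its experiments had biological replicates, but how many clones or cultures these 3 LSD1 KO libraries represent is not given in the sources used here, so p-values measure the spread between these libraries, whatever its source. LSD1 removes methyl groups from lysine 4 of histone H3, and the comparison asks how expression differed without it.

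The identity of the gut epithelium is held by a small set of DNA-binding proteins that act on the same enhancers. The caudal homeobox factors CDX1 and CDX2 specify the hindgut, and the nuclear receptors HNF4A and HNF4G drive the enterocyte programme together with them. GATA6 acts in gut endoderm and in the crypt, KLF5 is a factor of proliferating crypt cells, KLF4 belongs to differentiated cells including goblet cells, and ELF3 is an epithelial ETS factor that promotes enterocyte differentiation. Colorectal cancers keep or lose these factors to different degrees.

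In LSD1 KO cells, ELF3 was the member with the higher level and HNF4A the member with the lower level in every library, while CDX2, HNF4G, GATA6, KLF4 and KLF5 had group means that differed by less than their spread between libraries. CDX1 had no counts in any library. HNF4A was 4.11-fold lower than in WT cells, from only 16, 2 and 20 counts in LSD1 KO replicates 1, 2 and 3. ELF3 averaged 2.49-fold its WT level, and neither gene passed a q value of 0.1 in the edgeR model without a replicate block. ELF3 passed it with DESeq2, the tool used in the study, at a q value of 0.0352, and did not pass with DESeq2 and the replicate block, at 0.198.

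Total counts per library ranged from 25379279 to 29186963, and a gene with 3 counts, the floor used here, had 0.0994 to 0.114 CPM depending on the library (CPM, the counts of a gene scaled to the same library total, where the floor covers counting error only). KDM1A, the gene of LSD1, fell from 223.1 ± 8.78 CPM (SD, n = 3) to 28.4 ± 1.30 CPM (SD, n = 3), with a log2 fold change of -2.97 (q value 0.000451 from edgeR). Libraries of the 2 groups with the same number deviated from their group means together, with Pearson's r of 0.639, 0.631 and 0.491 across 17672 genes, which are not independent replicates. The 8 epithelial markers examined, EPCAM, KRT8, KRT18, KRT19, CDH1, CLDN3, CLDN4 and CLDN7, were all present, and their summed level was 2198 to 4105 CPM in WT and 2610 to 3411 CPM in LSD1 KO libraries. Single markers differed from that sum, since EPCAM was lower in each LSD1 KO library than in each WT library (means of 204.0 and 104.3 CPM in WT and LSD1 KO, edgeR q value 0.668 without and 0.0788 with the replicate block), as was KRT18 (means of 508.0 and 358.9 CPM, q values of 0.999 and 0.230). KRT19 was higher in the LSD1 KO library of each pair (edgeR q value 0.123 and DESeq2 q value 0.00373, both with the replicate block). CLDN4 was also higher in each pair, with q values of 0.139 and 0.0473 in these settings. CLDN3 was higher and CDH1 lower in the LSD1 KO library of each pair, with edgeR q values of 0.344 and 0.196 with the block. CLDN7 had means of 103.3 CPM in WT and 66.5 CPM in LSD1 KO (edgeR q values of 0.999 without and 0.307 with the block), with overlapping groups. KRT8 and CLDN7 changed sign between pairs. For EPCAM the DESeq2 q value was 0.0508 without and 0.162 with the replicate block. The 8 fibroblast markers summed to between 21.5 and 24.8 CPM in WT and between 31.7 and 35.5 CPM in LSD1 KO libraries, 7 of them below a mean of 1 CPM, with COL1A1 holding nearly all of the sum and LUM and PDGFRA at 0. The 7 blood and endothelial markers that were found summed to between 16.7 and 20.02 CPM in WT and between 23.2 and 33.8 CPM in LSD1 KO libraries, nearly all from CD68, with CD3E at 0 and PTPRC at 3 counts over all libraries. COL1A1 and CD68 were higher in each LSD1 KO library than in each WT library. Over all genes tested, the groups did not overlap for 7.74%. With the replicate block, COL1A1 had q values of 0.0628 from edgeR and 0.0247 from DESeq2, and CD68 had 0.132 and 0.0172. Without the block neither tool called them. The block settings called 1.6% of all genes with edgeR and 4.21% with DESeq2. The part of these markers in the results was not tested. In RNA from bulk cultures, fewer cells that express a gene and less RNA per cell cannot be told apart.

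The members span a wide range of levels, which were compared per length of the canonical transcript in GENCODE v44lift37. In WT cells, KLF4 had 15.04 ± 5.74 CPM per kb (SD, n = 3), KLF5 had 14.2 ± 2.71 CPM per kb and ELF3 had 12.4 ± 4.60 CPM per kb. The ranges of these neighbours overlapped, so no order among the 3 leading factors was resolved. GATA6 at 5.53 ± 1.20 CPM per kb and CDX2 at 4.85 ± 1.28 CPM per kb formed a second level, and their ranges also overlapped with each other, but not with ELF3 or HNF4G. HNF4G followed at 0.944 ± 0.132 CPM per kb and HNF4A at 0.413 ± 0.0250 CPM per kb, with no overlap between them. Per unit of length, the 2 nuclear receptors were therefore the least abundant of the members detected. In LSD1 KO cells ELF3 came first, at 30.9 ± 11.1 CPM per kb, and was above KLF4 in 2 of 3 libraries, while the remaining order was the one seen in WT cells.

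**Figure D1:**
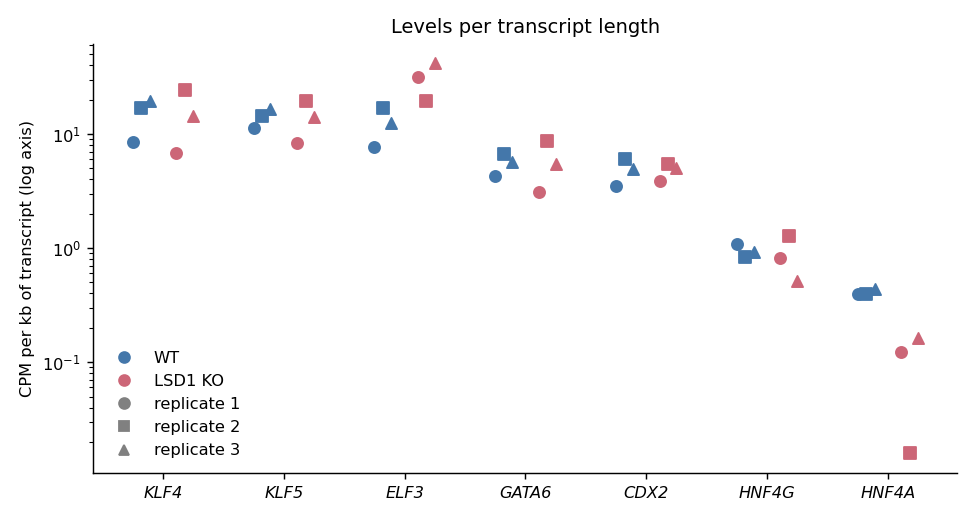
Level of each detected member in CPM per kb of canonical transcript (log axis), in order of the WT mean, with 1 point per library, WT in blue, LSD1 KO in red and the replicate number as marker shape. KLF4, KLF5 and ELF3 lead in WT cells with overlapping points, and HNF4A is lowest, at 0.413 CPM per kb in WT and 0.101 CPM per kb in LSD1 KO. CDX1 is left out because it had no counts.

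CDX1 and CDX2 are paralogous homeobox factors of the hindgut. CDX1 (ENSG00000113722), on chromosome 5 from 150166778 to 150184558 (GRCh38.p14, as are all gene positions here), had 0 counts in all 6 libraries. At this depth a count of 0 allows a level of up to 0.0994 to 0.114 CPM, depending on the library. CDX4, the third human caudal gene, also had 0 counts in each library. CDX2 was thus the caudal factor detected in these cells in either genotype.

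CDX2 (ENSG00000165556) lies on chromosome 13 from 27960918 to 27969315, on the minus strand. It had 12.2, 21.0 and 17.0 CPM in WT replicates 1, 2 and 3, and 13.5, 19.0 and 17.5 CPM in LSD1 KO replicates 1, 2 and 3. The groups overlapped fully, and replicate 1 was the lowest library in both. The means were 16.7 ± 4.41 CPM (SD, n = 3) in WT and 16.7 ± 2.85 CPM (SD, n = 3) in the LSD1 KO cells. The log2 fold change was -0.0054 (standard error 0.24, q value 0.999 from edgeR), with a 95% interval from -0.56 to 0.55. With the replicate block it was 0.013, with a narrower interval from -0.26 to 0.29. These intervals bound the difference and do not show that the levels were equal.

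HNF4A and HNF4G are nuclear receptors that bind the same DNA element. HNF4A (ENSG00000101076) lies on the plus strand of chromosome 20 from 44355699 to 44434596. Its RNA is known to start at 2 promoters, P2 upstream and P1 downstream, and in the RefSeq table of promoters the 2 starts are 45.5 kb apart. The deposited counts are per gene and add the transcripts from both. The 250 bases before each start are shown because HNF4A was the member with the lower level in LSD1 KO cells. Capitals mark 2 motifs, the motif GTTAAT, which reads ATTAAC on the other strand, and the GATA motif AGATAA, which reads TTATCT there, and both strands were searched for each.
HNF4A upstream start, chr20:44355449-44355698, plus strand, GRCh38.p14: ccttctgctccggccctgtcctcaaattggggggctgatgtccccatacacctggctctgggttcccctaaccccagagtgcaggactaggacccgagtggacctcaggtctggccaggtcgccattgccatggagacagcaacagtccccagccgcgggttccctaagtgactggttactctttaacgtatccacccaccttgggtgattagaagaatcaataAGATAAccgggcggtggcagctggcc
HNF4A downstream start, chr20:44400989-44401238, plus strand, GRCh38.p14: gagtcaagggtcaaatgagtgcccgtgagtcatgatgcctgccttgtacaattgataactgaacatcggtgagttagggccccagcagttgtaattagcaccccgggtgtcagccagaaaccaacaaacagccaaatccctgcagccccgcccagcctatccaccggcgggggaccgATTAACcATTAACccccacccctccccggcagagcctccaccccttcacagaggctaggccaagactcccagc
The downstream window holds 2 matches to GTTAAT, at 73 and 66 bases before the start, and no AGATAA. The upstream window holds 1 AGATAA, at 26 bases before the start, and no GTTAAT. Only exact matches were marked, so sites that differ by a base are not shown, and the 2 windows are not ranked by them. Over all 35116 promoter windows of 300 bases in the table, 6.88% held a GTTAAT match and 10.3% an AGATAA match, so these are letters found in many promoters, and no binding was measured here.

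HNF4A had 49, 49 and 62 counts in WT replicates 1, 2 and 3, which were 1.85, 1.85 and 2.05 CPM. In LSD1 KO replicates 1, 2 and 3 it had 16, 2 and 20 counts, which were 0.572, 0.0737 and 0.757 CPM. Each LSD1 KO library was below each WT library, and replicate 2 of LSD1 KO, at 2 counts, was under the floor of 3. The WT libraries were close to each other, at 1.92 ± 0.116 CPM (SD, n = 3), and the LSD1 KO libraries were spread more widely, at 0.468 ± 0.354 CPM (SD, n = 3).
The log2 fold change of HNF4A was -2.03 (standard error 0.63, unadjusted p = 0.0115, q value 0.999 from edgeR), with an unadjusted 95% interval from -3.47 to -0.59. With the replicate block it was -2.18 (standard error 0.53, q value 0.136). DESeq2's Wald test gave -2.05 and a q value of 0.216. Without LSD1 KO replicate 2 the log2 fold change was -1.54. In same-numbered pairs 1, 2 and 3 the log2 difference was -1.66, -4.35 and -1.42, and in pair 2 the LSD1 KO level was 3.97% of WT (exact binomial 95% interval 0.468% to 15.1%). With the replicate block and pair 2 left out, HNF4A had a log2 fold change of -1.57 and passed with a q value of 0.0358, and with pair 3 left out it had -2.71 and a q value of 0.0789. Those settings called 5.85% and 1.12% of all genes tested. With pair 1 left out it had -2.47 and did not pass, with a q value of 0.111.

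HNF4G (ENSG00000164749), on chromosome 8 from 75407649 to 75566834, is the second HNF4 gene of the intestine. It had 4.57, 3.48 and 3.84 CPM in WT replicates 1, 2 and 3 and 3.47, 5.34 and 2.16 CPM in LSD1 KO replicates 1, 2 and 3. The LSD1 KO libraries lay on both sides of the WT range. The means were 3.97 ± 0.555 CPM (SD, n = 3) in WT and 3.66 ± 1.60 CPM (SD, n = 3) in the LSD1 KO cells, with a log2 fold change of -0.12 (95% interval -0.94 to 0.71, q value 0.999 from edgeR). LSD1 KO replicate 2 was the lowest library for HNF4A and the highest for HNF4G. The log2 ratio of the 2 receptors was not compared between groups, because HNF4A was not above 3 counts in every library.

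GATA6, KLF4 and KLF5 varied between libraries much more than between genotypes, and they did so in nearly the same order. GATA6 (ENSG00000141448), a zinc finger factor on chromosome 18 from 22169589 to 22202528, had 15.4, 24.1 and 20.6 CPM in WT replicates 1, 2 and 3 and 11.3, 31.4 and 19.9 CPM in LSD1 KO replicates 1, 2 and 3. KLF4 (ENSG00000136826), on chromosome 9 from 107484852 to 107489769, had 25.2, 49.9 and 57.4 CPM in WT and 19.8, 70.8 and 42.4 CPM in LSD1 KO replicates 1, 2 and 3. KLF5 (ENSG00000102554), on chromosome 13 from 73054976 to 73077538, had 37.8, 48.6 and 55.9 CPM in WT and 27.8, 65.8 and 47.6 CPM in LSD1 KO replicates 1, 2 and 3. For all 3 genes the lowest library was LSD1 KO replicate 1, then WT replicate 1, and the highest was LSD1 KO replicate 2. KLF4 and KLF5 ranked the 6 libraries identically, and GATA6 differed only in the places of WT replicates 2 and 3. The highest and the lowest library of each gene therefore carried the same genotype.

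The group means of the 3 genes were close. GATA6 averaged 20.03 ± 4.36 CPM (SD, n = 3) in WT and 20.9 ± 10.1 CPM (SD, n = 3) in the LSD1 KO cells, a log2 fold change of 0.060 (95% interval -0.73 to 0.85). KLF4 averaged 44.2 ± 16.8 CPM in WT and 44.3 ± 25.5 CPM in LSD1 KO cells, a log2 fold change of 0.0051 (95% interval -1.02 to 1.03). KLF5 averaged 47.4 ± 9.08 CPM in WT and 47.1 ± 19.0 CPM in LSD1 KO cells, a log2 fold change of -0.011 (95% interval -0.70 to 0.67). Each had a q value of 0.999 from edgeR, and each SD was larger in LSD1 KO than in WT cells. The intervals narrowed with the replicate block to between -0.39 and 0.34 for GATA6, between -0.49 and 0.32 for KLF4 and between -0.44 and 0.29 for KLF5.

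In same-numbered pairs 1, 2 and 3, the log2 difference of KLF4 was -0.35, 0.51 and -0.44, that of KLF5 was -0.45, 0.44 and -0.23, and that of GATA6 was -0.44, 0.38 and -0.049. HNF4G had the same signs, at -0.40, 0.61 and -0.83. Pair 2 thus went the opposite way from the other pairs for each of these 4 genes. With the replicate block and pair 2 left out, KLF4 had a log2 fold change of -0.41 (q value 0.0467 from edgeR) and KLF5 one of -0.35 (q value 0.0968), in a setting that called 5.85% of all genes tested. Those calls rest on 2 pairs and were not made with all 3 pairs.

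**Figure D2:**
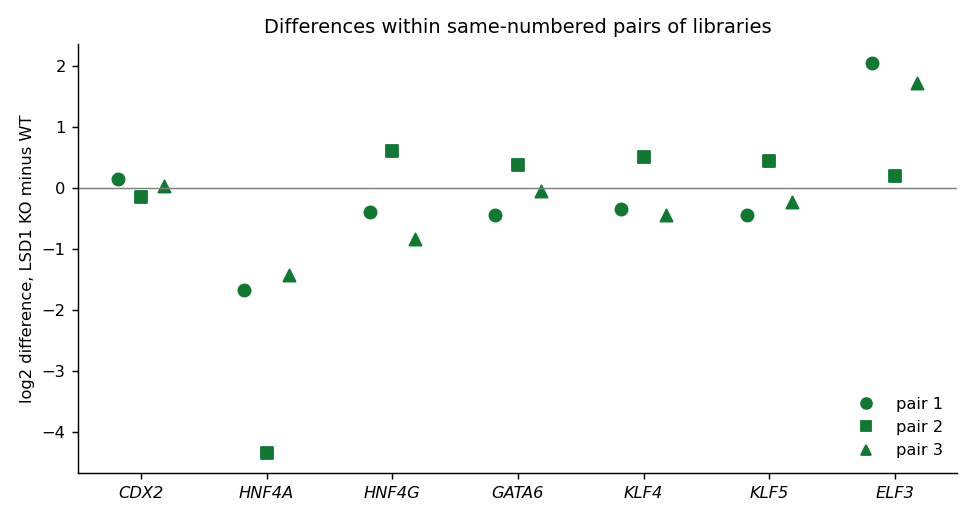
Log2 difference of LSD1 KO minus WT within each pair of libraries with the same replicate number, for the 7 members with counts. HNF4A is below 0 and ELF3 above 0 in all 3 pairs, with pair 2 at -4.35 and 0.20, and GATA6, KLF4, KLF5 and HNF4G change sign between pair 2 and the others.

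A test of the replicate number itself, in the fit with the block and chosen after the data were seen, gave q values of 0.00697 for KLF4, 0.0153 for GATA6, 0.0326 for CDX2 and 0.0333 for KLF5. Replicate 2 was higher than replicate 1 by 1.43 on the log2 scale for KLF4, by 1.06 for GATA6, by 0.81 for KLF5 and by 0.64 for CDX2. HNF4A, HNF4G and ELF3 had q values of 0.466, 0.411 and 0.507. Across all genes 41.2% passed this test, so 4 of 7 members is read against that background and not as a result about the members. The log2 ratio of KLF5 over KLF4 counts was 0.17 ± 0.36 (SD, n = 3) in WT and 0.18 ± 0.30 (SD, n = 3) in the LSD1 KO cells (two-sided exact permutation test, p = 1, where 3 libraries against 3 allow no p below 0.1). GATA6-AS1, an antisense RNA that overlaps GATA6, had 8, 22 and 12 counts in the WT libraries and 8, 45 and 14 counts in LSD1 KO replicates 1, 2 and 3, so its highest library was also LSD1 KO replicate 2. Reads of a gene and its antisense partner cannot be told apart without strand, and the sources used here do not say that the counting used it.

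ELF3 (ENSG00000163435) encodes an ETS factor of epithelia and lies on the plus strand of chromosome 1 from 202010587 to 202017183. The 250 bases before its start in the RefSeq table are shown because ELF3 was the member with the higher level in LSD1 KO cells. Capitals mark the only match among the 5 motifs searched, the CDX motif TTTATNG read on the other strand as CNATAAA, which here overlaps a TATA box sequence.
ELF3, chr1:202010337-202010586, plus strand, GRCh38.p14: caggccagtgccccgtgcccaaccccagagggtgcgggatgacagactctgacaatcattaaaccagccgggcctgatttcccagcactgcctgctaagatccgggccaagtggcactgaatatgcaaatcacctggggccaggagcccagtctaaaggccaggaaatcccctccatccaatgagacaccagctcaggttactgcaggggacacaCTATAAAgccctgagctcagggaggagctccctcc
The match starts 35 bases before the start of the gene. Of all promoter windows, 9.73% held a match to TTTATNG.

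ELF3 had 23.9, 52.4 and 39.0 CPM in WT replicates 1, 2 and 3, from 632, 1385 and 1176 counts. It had 98.4, 60.2 and 128.8 CPM in LSD1 KO replicates 1, 2 and 3, from 2751, 1634 and 3403 counts. Each LSD1 KO library was above each WT library, but replicate 2 was the highest library in WT and the lowest in LSD1 KO cells, and these 2 lay close together. The means were 38.4 ± 14.3 CPM (SD, n = 3) in WT and 95.8 ± 34.4 CPM (SD, n = 3) in the LSD1 KO cells.
The log2 fold change of ELF3 was 1.32 (standard error 0.34, unadjusted p = 0.00437, q value 0.788 from edgeR), with an unadjusted 95% interval from 0.54 to 2.10. With the replicate block it was 1.33 (standard error 0.30, q value 0.117). DESeq2's Wald test, without a block, gave 1.31 and a q value of 0.0352, and with the replicate block DESeq2 gave a q value of 0.198. The log2 difference was 2.04, 0.20 and 1.72 in pairs 1, 2 and 3. Without pair 2, the fit with the replicate block gave a log2 fold change of 1.86 and a q value of 2.7e-10, and without pair 3 it gave 1.12 and a q value of 0.0906. Without pair 1 it gave 0.97, and ELF3 did not pass, with a q value of 0.135. These fits were chosen after the data were seen and rest on 2 pairs each. Those without pair 2 and without pair 3 called 5.85% and 1.12% of all genes tested. The size of the difference in ELF3 thus depended on the pair left out, and its direction was the same in all 3 pairs.

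ELF3 overlaps ELF3-AS1 on the opposite strand and ENSG00000249007 on its own strand. ELF3-AS1 had 260, 167 and 220 counts in the WT libraries and 320, 162 and 261 counts in LSD1 KO replicates 1, 2 and 3, and ENSG00000249007 had no more than 22 counts in any library. The part of overlapping reads in the ELF3 difference was not tested. Among the ETS relatives of ELF3, EHF, ELF5 and SPDEF are the other factors of the epithelial branch, and all were low, EHF at means of 1.04 CPM in WT and 1.36 CPM in LSD1 KO cells, ELF5 at 0.148 and 0.160 CPM and SPDEF at 0.205 and 0.260 CPM. These 3 were named after their values were seen.

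Over all members, 7 of 8 had enough counts to be tested, and the eighth was CDX1. In the edgeR model without the block, 0 of the 7 had a q value under 0.1, where 0.00566% of the 17672 genes tested did. The only gene called was KDM1A itself, so 0 calls in that fit are not a result about the members or the lists. An unadjusted p under 0.05 was found for 2 of the 7 and for 3.12% of all genes. The replicate block left 0 of the 7 called, against 1.6% of all genes, and 2 again had an unadjusted p under 0.05, against 13.4%. DESeq2's Wald test called 1 of the 7, ELF3, against 0.376% of all genes. With DESeq2 and the replicate block 0 were called, against 4.21%, and HNF4A had no q value there. Groups did not overlap for 2 of the 7 members, HNF4A lower and ELF3 higher in LSD1 KO cells, and this held for 7.74% of all genes tested, 3.51% lower and 4.23% higher. The median log2 fold change of the members was -0.0054, and that of all genes tested was 0.00082. For a single gene, 3 libraries against 3 allow no exact permutation p below 0.1.

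**Figure D3:**
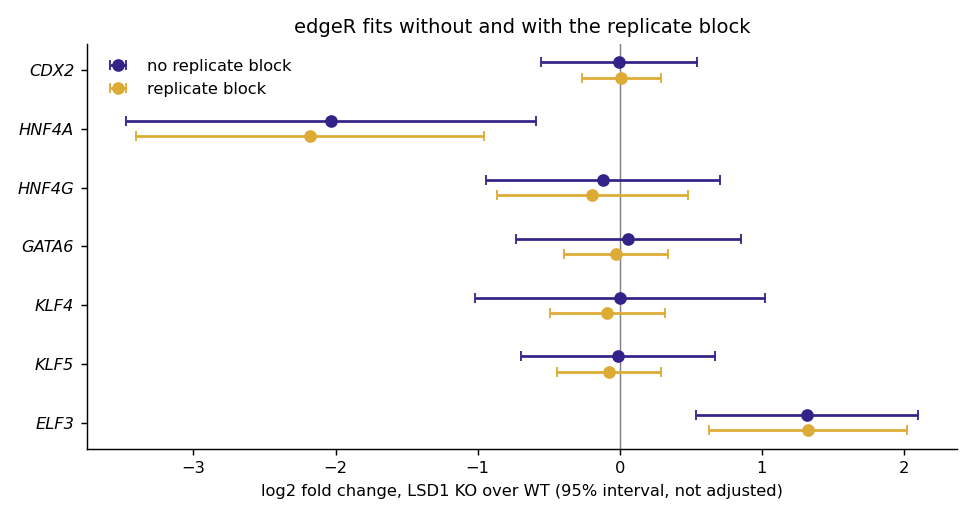
Log2 fold change of LSD1 KO over WT with its unadjusted 95% interval for the 7 members tested, from edgeR without (dark) and with (yellow) the replicate block. The intervals of HNF4A and ELF3 leave out 0 in both fits, although neither passed after adjustment over all genes, and those of the other 5 members include 0 and narrow with the block.

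The list of other gut regulators held 34 genes, of which 9 had no counts in any library, among them GATA4 and GATA5, the paralogs of GATA6, and NEUROG3 and INSM1 of the enteroendocrine lineage. Of the 18 tested, 0 were called without the block, with the block or by DESeq2, and 0 had an unadjusted p under 0.05 without the block. In edgeR with the block 1 of them had an unadjusted p under 0.05, against 13.4% of all genes. The median log2 fold change was 0.10. The most abundant were SOX9, a crypt factor, at means of 218.5 CPM in WT and 225.2 CPM in LSD1 KO cells, TCF7L2, the Wnt effector, at 199.3 and 216.3 CPM, and SMAD4 at 92.2 and 100.2 CPM. The smallest p belonged to CREB3L3, a factor of lipid metabolism in enterocytes and liver, with means of 0.803 ± 0.337 CPM (SD, n = 3) in WT and 1.97 ± 1.29 CPM (SD, n = 3) in the LSD1 KO cells, and its log2 fold change was 1.29 (standard error 0.56, q value 0.999 from edgeR). VDR, the vitamin D receptor, and PRDM1 followed, with log2 fold changes of -0.22 and 0.38 and q values of 0.999.

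Among the KLF and ETS relatives, 17 of 21 genes were tested. Without the block 0 were called and 1 had an unadjusted p under 0.05, against 3.12% of all genes. In edgeR with the block 5 of the 17 had an unadjusted p under 0.05, against 13.4% of all genes. The replicate block gave 1 call, against 1.6% of all genes, and this was KLF9, a factor induced by steroid hormones. KLF9 had 21.1, 30.7 and 33.0 CPM in WT and 32.5, 60.9 and 48.4 CPM in LSD1 KO replicates 1, 2 and 3. The groups overlapped, but within each pair the LSD1 KO library was higher, by 0.62, 0.99 and 0.55 on the log2 scale in pairs 1, 2 and 3. Its log2 fold change was 0.74 (standard error 0.26, q value 0.999) without the block and 0.72 (standard error 0.11, q value 0.0344) with it. KLF10, a factor induced by TGF-beta, was lower in each LSD1 KO library than in each WT library, with means of 149.6 ± 5.31 CPM and 117.9 ± 16.4 CPM (SD, n = 3 each), and had a q value of 0.999 without the block and 0.170 with it. DESeq2 with the replicate block called both KLF9 and KLF10, with q values of 0.000151 and 0.0518, in a setting that called 4.21% of all genes. The most abundant, KLF2, had a log2 fold change of 0.25, and KLF6 and KLF12 had -0.027 and -0.52, with q values of 0.999 for each.

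The intestinal differentiation genes, many of them known targets of CDX2 and the HNF4 receptors, were for the most part at or near 0 in these cells. Of 48 genes, 13 had no counts in any library, among them FABP1, APOB, SI, ALPI and GUCA2A, and 39 had a mean below 1 CPM. In the 13 that could be tested, 0 were called without the block, with the block or by DESeq2. An unadjusted p under 0.05 from edgeR was found for 0 of them without the block and 2 with it, the latter against 13.4% of all genes. Their median log2 fold change was 0.19, against 0.00082 over all genes tested. It was positive for 10 of the 13, against 8856 of 17672 over all genes and 12 of 18 other gut regulators. MTTP, named after the values were seen, held the median. It had means of 0.426 CPM in WT and 0.488 CPM in LSD1 KO cells and a standard error of 0.62. ESPN, an actin bundler of microvilli, had the highest level, at means of 97.2 CPM in WT and 84.1 CPM in LSD1 KO cells, followed by PLS1, another actin bundler, at 65.1 and 73.8 CPM. CA2, a carbonic anhydrase of the colon, had 47.3 ± 11.01 CPM in WT and 60.1 ± 8.42 CPM in LSD1 KO cells (SD, n = 3 each), and its log2 fold change was 0.35 (standard error 0.20, q value 0.999). USH1C, of the brush border, and VILL had log2 fold changes of 0.34 and 0.49, with q values of 0.999.

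Of the 21 crypt stem and progenitor genes, 16 were tested, 0 were called without the block and 1 was called with it, against 1.6% of all genes. That gene was LRIG1, a brake on ERBB receptors in crypt stem cells, which had 8.69, 7.99 and 10.8 CPM in WT and 3.93, 5.56 and 5.19 CPM in LSD1 KO replicates 1, 2 and 3. Each LSD1 KO library was below each WT library. Its log2 fold change was -0.90 (standard error 0.25, q value 0.894) without the block and -0.90 (standard error 0.19, q value 0.0864) with it. ASCL2, OLFM4 and SMOC2, markers of the stem cell, had no counts. CD44, SOX9 and BMI1 were the most abundant of the list, CD44 at means of 489.9 CPM in WT and 408.2 CPM in LSD1 KO cells, and RGMB and MSI1 had the next smallest p after LRIG1, with log2 fold changes of 0.46 and -0.27 and q values of 0.999. The median log2 fold change of the list was -0.065. An unadjusted p under 0.05 from edgeR was found for 1 of the 16 tested without the block and 5 with it, against 3.12% and 13.4% of all genes.

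**Figure D4:**
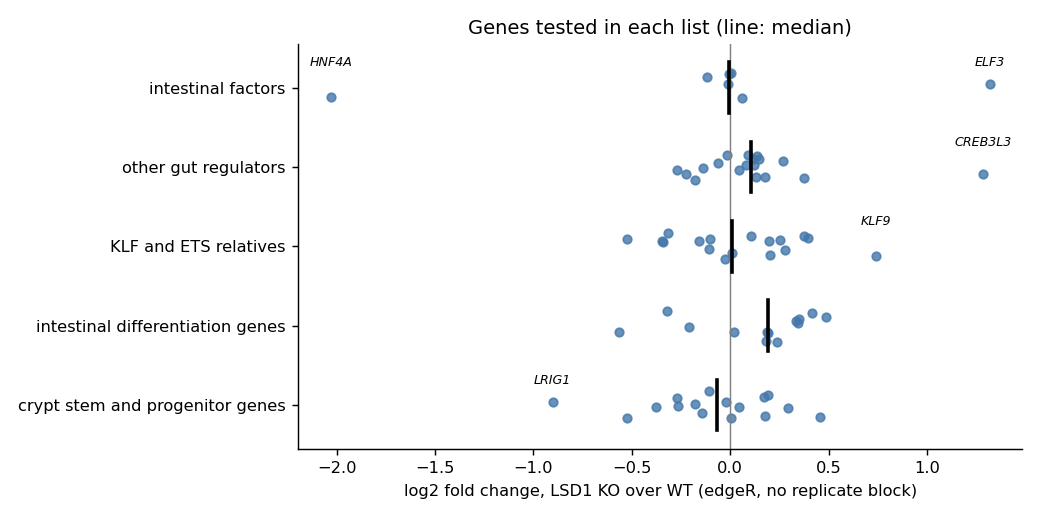
Log2 fold change of LSD1 KO over WT from edgeR without the replicate block, 1 point per gene tested, for the members and the 4 lists of related genes, with the median of each as a black line. Genes beyond 0.7 in either direction carry their name. The medians lie between -0.065 and 0.19, and HNF4A at -2.03 is the gene farthest from 0.

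To place the members among all 14814 genes with a mean of at least 1 CPM, the 2 genes most like each member over the 6 libraries were found by Pearson's r of log2 CPM. They were picked as the highest of many, and the libraries share replicate numbers and genotype, so r is a description. HNF4A was most like MAL2, a protein of apical membrane transport (r = 0.997), and ACOT11, an acyl-CoA thioesterase (r = 0.993). ELF3 was most like NTPCR (r = 0.992) and STAG3L5P-PVRIG2P-PILRB (r = 0.986). KLF4 was most like PTGER2, a receptor of prostaglandin E2 (r = 0.999), and SNAI3 (r = 0.997), and GATA6 was most like MC1R (r = 0.995) and HPGD, which degrades prostaglandins (r = 0.994). KLF5 was most like ITGA3 (r = 0.996) and ELK3 (r = 0.993), CDX2 was most like HHLA3 (r = 0.999) and PYGL (r = 0.996), and HNF4G was most like ENSG00000274265 and TAPBP (r = 0.988 for both).

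Promoter windows of 300 bases, from 250 before to 50 after a start, were found in the RefSeq table for 6 of the 8 members. CDX1 and HNF4G were the others. The windows differed in CpG content. KLF4 held 33 CpG dinucleotides, the second start of KLF5 held 37 and GATA6 held 25, against a median of 14 over all windows. ELF3 held 7, the starts of HNF4A held 11 and 9, and the first start of KLF5 held 4. CDX2 held 16. Of all windows, 36.8% held fewer CpG than that of ELF3, and 45.3% and 41.6% held fewer than the upstream and downstream starts of HNF4A. For the first start of KLF5 this was 24.5%. A link between CpG content and expression was not tested. Besides the motifs printed above, the KLF motif CCACNCCC was in no window of a member and in 17.2% of all windows, and the ETS motif GGAAGT was in that of KLF4 and in 22.8% of all windows. CDX2 held 1 GTTAAT, 1 AGATAA and 1 TTTATNG, and the first start of KLF5 held 1 TTTATNG. A match describes letters in these windows, and the absence of one says nothing about binding of a factor.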

How the data were processed

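RNA-seq data of HCT116 cells, 3 WT and 3 LSD1 KO samples, were analysed. According to the study's methods and the submitters' processing notes, reads were checked with FastQC, trimmed with Trimmomatic 0.39 and quantified with Salmon 1.4.0 against GENCODE transcripts on GRCh38. The authors deposited expected counts per gene as whole numbers, without scaling for library size. Salmon divides reads between similar transcripts by estimation, and the step from transcripts to genes is not given in the sources used here. Symbols were matched through the stable part of the Ensembl identifier (58395 of 60240 genes).

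All genes were fitted together with edgeR 4.0.16 in R 4.3.3 (TMM factors, filterByExpr, quasi-likelihood test), and a gene was called at a Benjamini-Hochberg q value under 0.1, the threshold of the study. CPM were scaled by the TMM factors. Standard errors and 95% intervals came from the log2 fold change and its F statistic. The labels do not say that same-numbered libraries belong together. Library numbers were taken to pair the samples, since each same-numbered pair correlated above 0.1 in these same data. Unlike-numbered WT and LSD1 KO libraries had r from -0.606 to 0.0756. A second model held the number as a block, and its results rest on that pairing. DESeq2 1.42.0 was the other tool. Pair differences and the KLF5 to KLF4 ratio used counts plus 0.5. For likeness, 0.5 was added to CPM.

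The members, the lists and the tests were chosen with earlier results of these data known. The genes named in a list are those called in either edgeR fit, otherwise the 3 with the smallest p above a mean of 1 CPM, and the 3 with the highest level. Other names are given as chosen afterwards or as genes with no counts. The fits were run on simulated data with known changes, to check the sign and size of the estimates. That simulation used the same dispersion for all genes and does not show how often calls in the real data are false. Alternatives were other scaling, other filters, DESeq2, the block, a q value under 0.05 and leaving out libraries. Gene positions and promoter sequences come from RefSeq on GRCh38.p14, transcript lengths and overlaps from GENCODE v44lift37. Intervals and floors cover counting error only where they come from counts of 1 library. Some genes of the lists are counted in them and are not reported here by name.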

Additional observations from a re-analysis of the deposited data

How the results depend on the processing

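Against the edgeR model without the block, ELF3 was higher in LSD1 KO cells under all 19 alternatives tried for it (0.97 to 1.86 on the log2 scale) and was called in 4, and HNF4A was lower under all 18 that tested it (-2.71 to -1.54) and was called in 2. The groups of these genes do not overlap, so leaving out libraries could hardly turn the direction, and the stricter q value reused the same fit. The calls of HNF4A came from fits with a pair left out, chosen after the data were seen. So did those of ELF3, apart from the calls with DESeq2 and with every gene kept. A filter of 10 counts in every library removed HNF4A. The members called went from 0 to 1 with every gene kept, where ELF3 had a q value of 0.00612, and to 1 with DESeq2. The number of all genes called was 1 without the block, 2 with library size alone, 114 with every gene kept, 95 with DESeq2, 282 with the replicate block, 597 with DESeq2 and the replicate block, and 1 to 26 when single libraries were left out, the 26 without LSD1 KO replicate 2. The replicate block gave 1 call among the KLF and ETS relatives and 1 among the crypt genes, against 1.6% of all genes. DESeq2 with the replicate block gave 2 and 1, against 4.21%. In edgeR the counts of called members, other gut regulators and differentiation genes were 0 with and without the block, while DESeq2's call of ELF3 was lost with it (q value 0.198).

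The small differences turned sign with the setting. Library size alone gave -0.037 for KLF4. The replicate block gave 0.013 for CDX2, -0.025 for GATA6 and -0.086 for KLF4, and DESeq2 with the replicate block gave 0.0090, -0.033 and -0.095. When each of the 6 libraries was left out in turn, the range was -0.19 to 0.18 for CDX2, -0.38 to 0.36 for GATA6, -0.53 to 0.36 for KLF4, -0.35 to 0.26 for KLF5, -0.51 to 0.15 for HNF4G and -0.14 to 0.22 for the log2 ratio of KLF5 over KLF4, with 0 members called.

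The following were chosen after seeing the data. Without both replicate 2 libraries the log2 fold change was 0.067 for CDX2, -0.23 for GATA6 and -0.43 for KLF4, and 22 genes were called. With the replicate block and pair 1 left out it was 0.10 for KLF5, and 428 genes were called. With pair 2 left out it was 0.075 for CDX2, -0.25 for GATA6 and -0.41 for KLF4. That fit called 1055 of 18043 genes tested (5.85%). Among them were 4 members, 3 KLF or ETS relatives, 2 differentiation genes and 2 crypt genes. With pair 3 left out the log2 fold change was 0.0023 for CDX2, 0.11 for HNF4G, -0.014 for GATA6 and 0.0053 for KLF5. That fit called 198 of 17686 genes tested (1.12%), with 2 members and 1 KLF or ETS relative. The cause of these changes was not tested. Depth limits HNF4A, where LSD1 KO replicate 2 had 2 counts, and CDX1 and the differentiation genes at 0.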
